A study of Mus musculus with 5 samples.

Results

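AP-1 is a family of transcription factors that bind DNA as pairs of basic leucine zipper proteins. FOS proteins pair with JUN proteins, while JUN proteins can also pair with each other and with BATF and ATF proteins. Several of the genes are immediate early genes, transcribed soon after a cell is stimulated through MAP kinases. In dendritic cells BATF proteins also act with IRF factors. The 9 genes examined were Fos, Fosb, Fosl1, Fosl2, Jun, Junb, Jund, Batf and Atf3. They were taken by symbol from a deposited table of 27678 genes, and each of the 9 was among the 13813 genes tested.

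The libraries came from Etv3+/+ mice (2 libraries) and Etv3-/- mice (3 libraries), the second lacking Etv3, a member of the ETS family of transcription factors. Bone marrow cells of both genotypes had 6 days of culture with GM-CSF (20 ng/ml) and IL-4 (5 ng/ml), cytokines that drive marrow progenitors towards dendritic cells. Sorted cells were live, CD11c positive, CD11b intermediate, high for MHC class II and CD115 negative, and the comparison addresses how loss of Etv3 alters them. The labels do not state the age or strain of the mice, which part of Etv3 was disrupted, or whether the replicates are separate mice or cultures. The p-values therefore measure the spread between these libraries, which may be technical.

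Recovered depth was 42983550 to 68253936 reads per library. Values below are normalized counts, which are read counts divided by a factor for each library. Etv3 itself had 23050 and 25447 in Etv3+/+ and 18691 to 22856 in Etv3-/-, and such a total over the gene does not check the knockout. Markers of dendritic cells took 3.09% and 2.10% of all counts in Etv3+/+ and 4.54% to 6.13% in Etv3-/-, and none of the 10 was at 0 in all libraries. Limma called 0 of these 10, edgeR 1 and DESeq2 4, with 4 at an unadjusted p under 0.05 and 6 with all Etv3-/- values above both Etv3+/+ values. The most abundant were Cd74 (means 527129 and 853963 in Etv3+/+ and Etv3-/-) and H2-Ab1 (247121 and 719932). DESeq2 called Itgam and the class II genes H2-Ab1, H2-Aa and H2-Eb1, and MHC class II was also used to sort the cells. Markers of macrophages and monocytes took 0.0652% and 0.0578% in Etv3+/+ and 0.106% to 0.140% in Etv3-/-. Of those 13 markers 3 rose in limma and edgeR, C1qa, C1qb and C1qc, and none was at 0 in all libraries. DESeq2 called 9 of the 13, 10 had an unadjusted p under 0.05, and in 10 all Etv3-/- values lay above both Etv3+/+ values. Over all tested genes limma called 0.876% higher, edgeR 1.14% and DESeq2 8.46% in either direction, 18.0% had an unadjusted p under 0.05 and 16.7% were separated upwards. B cell markers took 0.00425% and 0.00288% against 0.00636% to 0.0101%, and T and NK cell markers 0.0176% and 0.0169% against 0.00532% to 0.0127%. Limma and edgeR called 0 of 7 and 0 of 8 of these, with 4 and 3 at an unadjusted p under 0.05, and DESeq2 called 3 and 0. Neutrophil markers and the mitochondrial share (1.98% and 6.64% against 1.10% to 3.17%) overlapped between genotypes. The part of these other cells in the values below was not tested, and in sorted bulk samples fewer cells of a type and less RNA per cell cannot be told apart. Etv3+/+ replicate 2 and Etv3-/- replicate 3 had the strongest trends with GC content, with Spearman correlations across genes of -0.42 and 0.41.

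Fos, Fosb and Junb were the members whose 3 Etv3-/- values all lay above both Etv3+/+ values. Their upstream sequences are shown because they can be set side by side for shared elements. They are the 250 bases before the RefSeq start on GRCm38.p6, at chr12:85473640-85473889 (plus strand) for Fos, chr7:19310046-19310295 (minus strand) for Fosb and chr8:84978749-84978998 (minus strand) for Junb. Capitals mark TGACG, the core of the cyclic AMP response element (CRE).
Fos: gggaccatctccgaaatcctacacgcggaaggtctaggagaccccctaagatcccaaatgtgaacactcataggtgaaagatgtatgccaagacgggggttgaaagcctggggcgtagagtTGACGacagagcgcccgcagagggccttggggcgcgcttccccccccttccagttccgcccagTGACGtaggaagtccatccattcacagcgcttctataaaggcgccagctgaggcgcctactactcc
Fosb: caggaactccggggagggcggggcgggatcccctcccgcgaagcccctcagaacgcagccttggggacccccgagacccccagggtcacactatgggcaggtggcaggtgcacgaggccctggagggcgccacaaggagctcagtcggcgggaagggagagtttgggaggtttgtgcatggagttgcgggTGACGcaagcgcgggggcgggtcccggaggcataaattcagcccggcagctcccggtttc
Junb: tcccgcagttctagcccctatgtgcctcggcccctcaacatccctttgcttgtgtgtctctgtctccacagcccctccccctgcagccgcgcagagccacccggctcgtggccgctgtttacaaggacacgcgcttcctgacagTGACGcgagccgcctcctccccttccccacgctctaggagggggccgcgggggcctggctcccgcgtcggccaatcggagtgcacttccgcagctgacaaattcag

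RefSeq promoters were matched for 8 of the 9 members, all but Fosl1. Their starts can differ from the gene positions given below. The Jund window (chr8:70697489-70697738) ended well before the gene at 70698949. The windows of Fosl2 (chr5:32136222-32136471) and Atf3 (chr1:191183334-191183583) lay within the spans of their genes. Those of Batf (chr12:85686470-85686719) and Fosb overlapped the first bases of their genes, which begin at 85686669 and, on the minus strand, 19310051. Both strands were searched for TGACTCA, the element that AP-1 binds, for TGACGTCA, the full CRE, for CCGGAAGT, an ETS element, and for the CArG box bound by SRF. These 4 motifs were in none of the 8 windows, and in 4.46%, 1.55%, 2.88% and 1.47% of 32851 promoter windows of 250 bases. Sequence farther upstream and near matches were not searched, so the absence covers exact matches within the 250 bases only. The core TGACG, searched for after the sequences had been seen, is part of the full CRE and was in 17.8% of those windows. It began 129 and 66 bases before the start of Fos, 60 before Fosb and 106 before Junb. It was also in the windows of Batf and Atf3, whose values did not separate by genotype, and in 5 of 8 members altogether.

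Fos was the member that rose. Fos encodes c-FOS, the FOS protein that pairs with JUN proteins on AP-1 sites (chromosome 12, 85473890 to 85477273, GRCm38). The 2 Etv3+/+ libraries held 1715 and 1764 normalized counts of it, and the 3 Etv3-/- libraries 6340, 6201 and 5615. The lowest Etv3-/- library was 3.18 times the higher Etv3+/+ library. In limma the log2 fold change was 1.80 (95% interval 1.34 to 2.26, adjusted p = 0.0135), a 3.47-fold rise. The mean went from 1739 ± 34.5 (SD, n = 2) in Etv3+/+ to 6052 ± 385 (SD, n = 3) in Etv3-/-. By p-value Fos stood at rank 21 of 13813 genes. The exact permutation test over 10 splits gave p = 0.1, the smallest it can give.

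Across 20 other settings the Fos log2 fold change lay between 1.61 and 1.89, and 14 settings kept the call. It passed with edgeR on recovered reads (adjusted p = 0.0192), which called 1.14% of tested genes, with the replicate block (0.00971) and after correction for GC content and length (0.0087). In limma it passed without Etv3+/+ replicate 2 (adjusted p = 0.0407). It missed the threshold without Etv3+/+ replicate 1 (adjusted p = 0.0519), without Etv3-/- replicate 1 (0.0973), 2 (0.0807) or 3 (0.0711), and with trend=FALSE (0.0592). No gene at all was called without Etv3-/- replicate 1, although 1885 genes had an unadjusted p under 0.05 there.

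**Figure D1:**
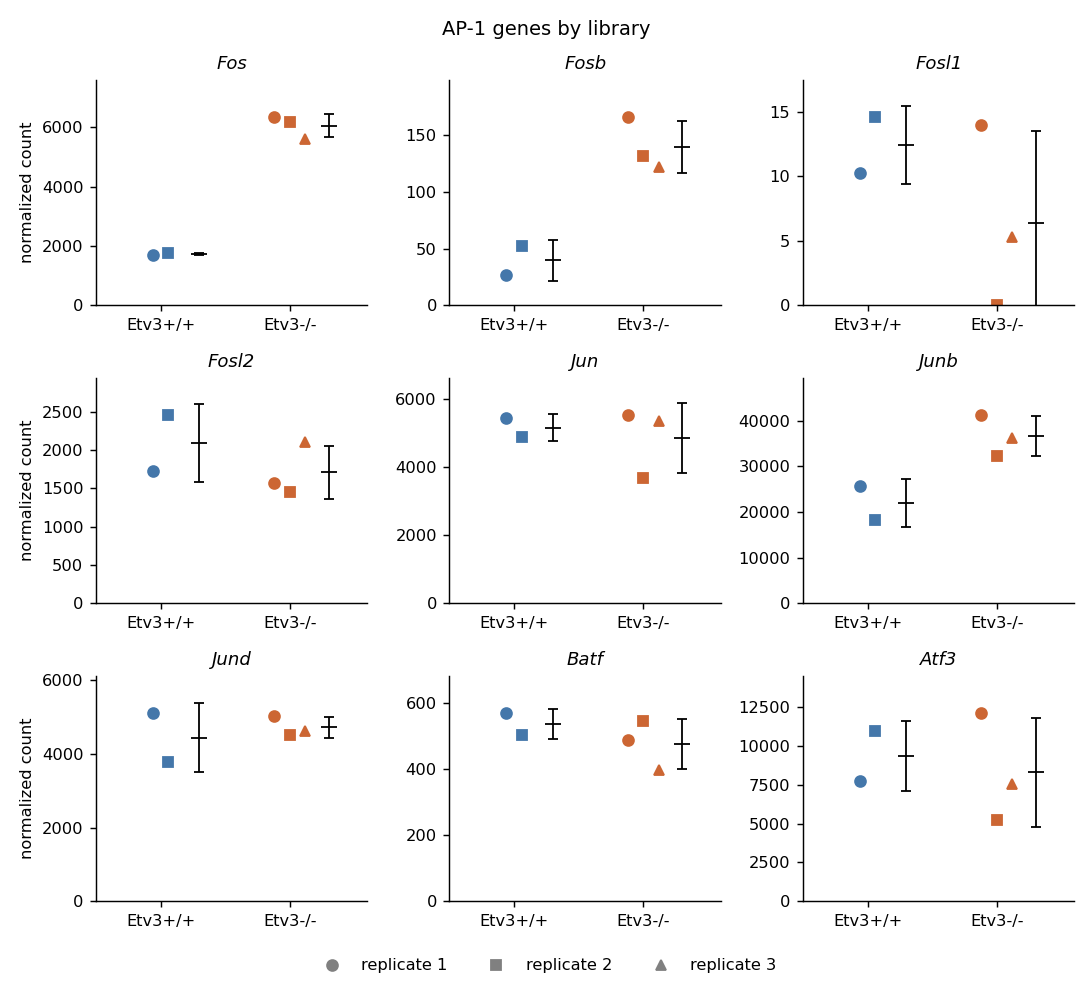
Normalized counts of the 9 AP-1 genes in each library (points; shape gives the replicate), with the mean and SD of each genotype beside them; each vertical axis starts at 0 and has its own scale. Fos, Fosb and Junb have 3 Etv3-/- points above both Etv3+/+ points, and the other genes overlap.

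Fosb encodes a further FOS protein and was scarce (chromosome 7, 19302696 to 19310051). It had 27.0 and 52.2 normalized counts in Etv3+/+ and 166, 131 and 122 in Etv3-/-, from 29 and 61 recovered reads against 154, 106 and 139. The groups did not overlap, yet the difference did not pass the test over all genes. With limma the log2 fold change reached 1.85 (95% interval 0.28 to 3.42, adjusted p = 0.217). Its point estimate was close to that of Fos, with a wider interval. Fosb was called in 0 of 20 other settings.

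Fosl1 and Fosl2 encode FRA-1 and FRA-2, FOS proteins that lack the strong activation domain of c-FOS. Fosl2 (chromosome 5, 32135801 to 32157842) had 1732 and 2453 normalized counts in Etv3+/+ and 1568, 1459 and 2101 in Etv3-/-. The groups overlapped, with a log2 fold change of -0.29 (95% interval -0.94 to 0.37, limma adjusted p = 0.628). Fosl1 (chromosome 19, 5447547 to 5455946) was near the limit of detection. It had 11 and 17 recovered reads in Etv3+/+ and 13, 0 and 6 in Etv3-/-. A count of 0 in Etv3-/- replicate 2 allows up to 3 reads, or 3.72 normalized counts, and covers counting error only. No difference in Fosl1 was detectable at this depth (adjusted p = 0.683), and its exons overlap those of Ccdc85b on the opposite strand.

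Among the JUN genes, Junb had the larger difference. JUNB is a JUN protein that is often a weaker activator than c-JUN (gene on chromosome 8, 84974484 to 84978718). Junb had 25688 and 18200 normalized counts in Etv3+/+ and 41167, 32362 and 36188 in Etv3-/-. The groups did not overlap. The log2 fold change of 0.75 (95% interval 0.21 to 1.30) did not pass (limma adjusted p = 0.168), and the mean went from 21944 ± 5295 (SD, n = 2) to 36572 ± 4415 (SD, n = 3). DESeq2 on recovered reads, which called 8.46% of tested genes, called it (adjusted p = 0.0227), and it was not called in the other 19 settings. Without Etv3+/+ replicate 2 its log2 fold change was 0.50 (adjusted p = 0.474), and without Etv3+/+ replicate 1 it was 1.00 (adjusted p = 0.148). The exons of Junb overlap those of Prdx2, a peroxiredoxin gene on the opposite strand, so reads there are uncertain if strand was not used. Prdx2 had 21121 and 17351 in Etv3+/+ and 22193, 18974 and 24600 in Etv3-/-, which overlap.

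Jun and Jund had overlapping groups. Jun encodes c-JUN, the main partner of c-FOS (chromosome 4, 95049034 to 95052222). It had 5428 and 4877 normalized counts in Etv3+/+ and 5511, 3674 and 5356 in Etv3-/-. The difference was -0.11 on the log2 scale (95% interval -0.67 to 0.45, limma adjusted p = 0.854). Etv3-/- replicate 2 was the low library, and without it the sign turned (0.08). Jund, a JUN gene that is usually expressed steadily (chromosome 8, 70698949 to 70700616), had 5094 and 3780 in Etv3+/+ and 5026, 4502 and 4609 in Etv3-/-. Its difference was 0.10 on the log2 scale (95% interval -0.40 to 0.60, limma adjusted p = 0.849), and -0.11 without Etv3+/+ replicate 2. Each overlaps an antisense gene on the opposite strand, Junos and Gm11175. These intervals leave room for changes of up to about 0.67 downwards in Jun and 0.60 upwards in Jund on the log2 scale.

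Batf and Atf3 also overlapped between genotypes. Batf encodes a short factor that pairs with JUN proteins and binds with IRF4 or IRF8 (chromosome 12, 85686669 to 85709087). It had 568 and 503 normalized counts in Etv3+/+ and 487, 545 and 395 in Etv3-/- (log2 fold change -0.18, 95% interval -1.0 to 0.64, limma adjusted p = 0.834). Atf3, a stress-induced gene whose protein can repress inflammatory genes (chromosome 1, 191170296 to 191218039), was abundant and spread widely within each genotype. It had 7743 and 10932 in Etv3+/+ and 12086, 5205 and 7557 in Etv3-/-. Etv3-/- replicates 1 and 2 were the highest and the lowest of the 5 libraries. The difference was -0.24 on the log2 scale (95% interval -1.06 to 0.58, limma adjusted p = 0.771), and without Etv3+/+ replicate 2 or Etv3-/- replicate 2 the sign turned (0.01 and 0.06).

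**Figure D2:**
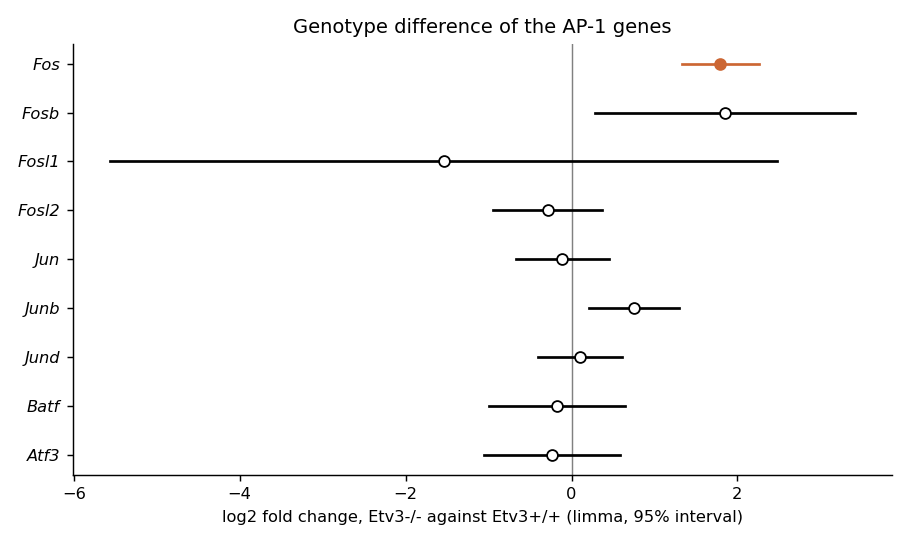
Log2 fold change of each AP-1 gene, Etv3-/- against Etv3+/+, from limma (circle) with its 95% interval (line); the filled circle marks adjusted p under 0.05. Fos is the filled one at 1.80, while the intervals of Fosb and Junb also lie above 0 without passing the adjusted threshold.

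By counts, 1 of the 9 members was called higher and 0 lower, against 0.876% and 0.319% of all tested genes, or 1.19% in either direction. In 3 of 9 all Etv3-/- values lay above both Etv3+/+ values, against 16.7% of tested genes, and in 0 of 9 they lay below, against 19.3%. At an unadjusted p under 0.05 there were 3 of 9, against 18.0%. The median log2 fold change was -0.11 over the members and -0.06 over all tested genes. The median of the members thus lay close to that of all genes, and Fos lay above both. No member lies on chromosome 3, which carries Etv3.

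Levels can be set against each other once divided by exon length, here in normalized counts per kb of annotated exon. Junb was the highest member in both genotypes, at 11164 and 7910 per kb in Etv3+/+ and 17891, 14064 and 15727 in Etv3-/-. In Etv3+/+ it was followed by Atf3, Jund, Jun, Fos, Batf and Fosl2, each separated from the next, and Fosb and Fosl1 overlapped at the bottom. In Etv3-/- Atf3 and Jund overlapped, and Fos stood above Jun. Fos was at 729 and 750 per kb in Etv3+/+, below Jun at 1702 and 1529. In Etv3-/- Fos was at 2696, 2636 and 2387, above Jun at 1728, 1152 and 1680.

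Shares of the summed per-length level were compared next. Fos was 3.50% and 4.13% of the sum over the 9 genes in Etv3+/+ and 8.56%, 11.2% and 8.98% in Etv3-/-. Junb was 53.6% and 43.6% in Etv3+/+ and 56.8%, 59.8% and 59.2% in Etv3-/-, although Junb itself did not pass the test. The FOS genes summed to 917 and 1019 per kb in Etv3+/+ and 2891, 2808 and 2626 in Etv3-/-. The JUN genes summed to 15920 and 11705 in Etv3+/+ and 22633, 17915 and 20170 in Etv3-/-. As a share of the 9 genes the JUN sum overlapped between genotypes, at 76.4% and 64.5% against 71.9%, 76.1% and 75.9%. The JUN sum exceeded the FOS sum in each of the 5 libraries. These transcript levels do not measure the proteins.

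**Figure D3:**
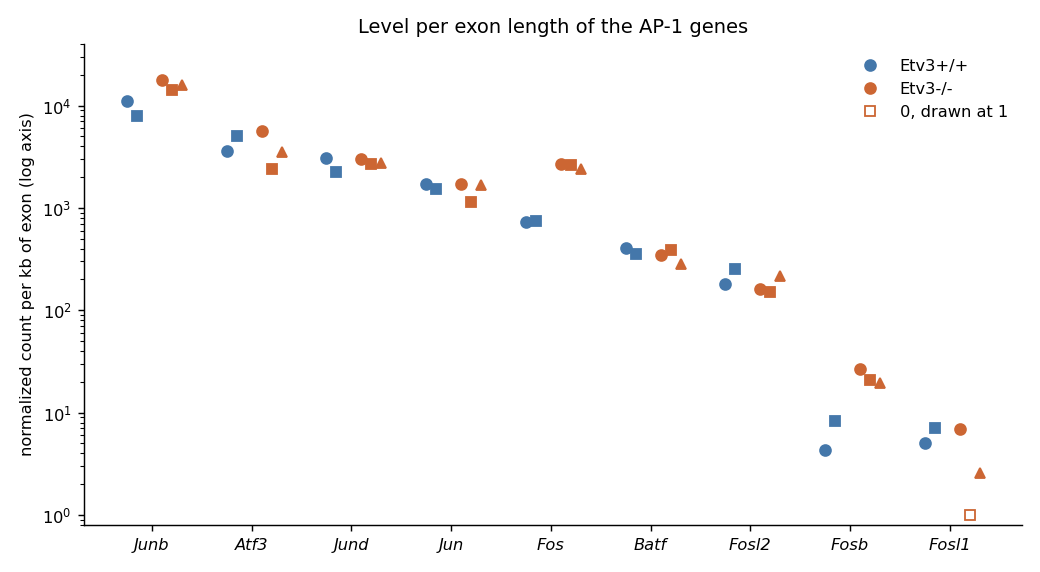
Normalized count per kb of annotated exon (log axis) for the 9 AP-1 genes in each library, ordered by the Etv3+/+ mean; the open square is a value of 0 drawn at 1. Junb is the highest in both genotypes, and the Fos points of Etv3-/- (2387 to 2696) lie above those of Etv3+/+ (729 and 750).

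Ratios of members within a library are almost free of its scaling factor. The log2 ratio of Fos to Jun was -1.66 and -1.47 in Etv3+/+ and 0.20, 0.75 and 0.07 in Etv3-/-, a difference of 1.91. Fos to Fosl2 was -0.01 and -0.48 in Etv3+/+ and 2.01, 2.09 and 1.42 in Etv3-/-, a difference of 2.08. Junb to Jun was 2.24 and 1.90 in Etv3+/+ and 2.90, 3.14 and 2.76 in Etv3-/-, a difference of 0.86. For these 3 ratios the groups did not overlap and the two-sided exact permutation p was 0.1, the smallest that 10 splits allow, so none can pass 0.05. Fosb to Fos was -5.94 and -5.05 in Etv3+/+ and -5.25, -5.55 and -5.51 in Etv3-/-, with a difference of 0.06 (exact permutation p = 1). That difference was smaller than the gap between the 2 Etv3+/+ libraries.

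**Figure D4:**
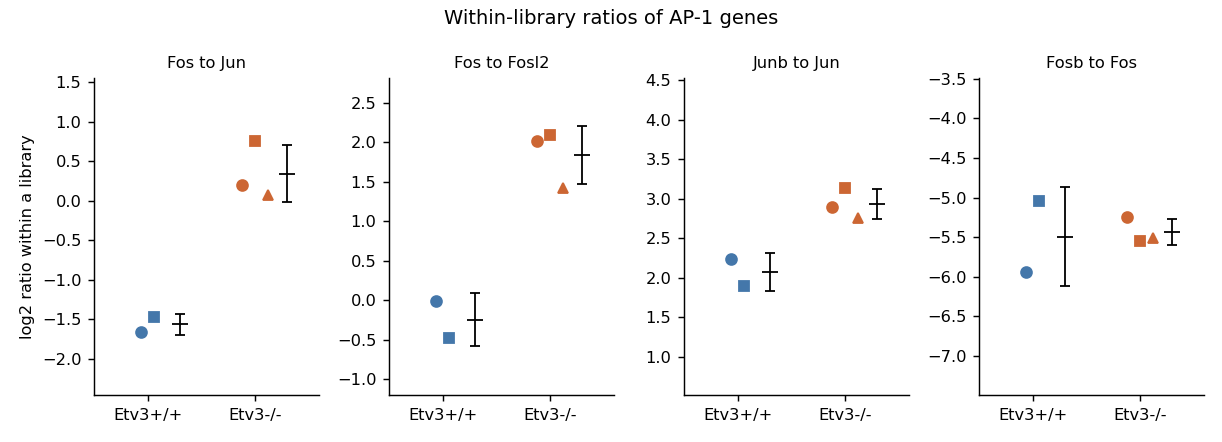
Log2 ratio of normalized counts (with 1 added) of 2 AP-1 genes within each library (points; shape gives the replicate), with mean and SD; the 4 panels span the same height on shifted axes. Fos to Jun, Fos to Fosl2 and Junb to Jun are higher in all 3 Etv3-/- libraries, and Fosb to Fos overlaps.

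Closer relatives of the members were examined next. Among Batf2, Batf3, Jdp2, Irf4 and Irf8, 1 of 5 rose and 0 fell in limma (0.876% and 0.319% of all tested genes), with a median log2 fold change of -0.19. At an unadjusted p under 0.05 there were 2 of 5, against 18.0% of all tested genes. In edgeR 1 was called, Batf2, and in DESeq2 2, Batf2 and Jdp2, against 1.14% and 8.46% of all tested genes. Batf2, a BATF relative induced by interferon, had 228 and 155 normalized counts in Etv3+/+ and 968, 954 and 695 in Etv3-/-, a 4.57-fold rise (log2 fold change 2.19, limma adjusted p = 0.0456). That call was lost in 10 of 20 settings, among them the omission of any single library (adjusted p = 0.0776 and 0.131 without Etv3+/+ replicates 1 and 2, and 0.169, 0.141 and 0.133 without Etv3-/- replicates 1, 2 and 3). Batf3, needed for type 1 conventional dendritic cells, overlapped at 7787 and 6125 against 5114, 5762 and 7560.

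Jdp2 encodes a zipper protein that pairs with JUN proteins and represses AP-1 sites, and was singled out after its values were seen. Its gene (85599027 to 85639878) lies in the 209 kb between Fos and Batf on chromosome 12 and is the 1 tested gene of 4 annotated there. It had 1940 and 2205 normalized counts in Etv3+/+ and 4443, 4265 and 3974 in Etv3-/-. The groups did not overlap and the log2 fold change was 1.03 (95% interval 0.55 to 1.51), which missed the threshold (limma adjusted p = 0.065). It passed in 2 of 20 settings. Along this stretch Fos and Jdp2 were thus at higher values in each Etv3-/- library, while Batf overlapped.

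Of 14 ATF and CREB relatives 0 were called by limma or edgeR (1.19% and 1.14% of all tested genes). There were 5 at an unadjusted p under 0.05, against 18.0% of all tested genes. Their median log2 fold change was 0.01. DESeq2, which called 8.46% of all tested genes, called 2, Creb1 and Crem, both lower. Among the 2 most abundant, Xbp1 had means of 21251 and 27168 and Atf4, a factor of the stress response, 4549 and 7917 in Etv3+/+ and Etv3-/-. Of 11 MAF and NRF relatives 0 were called by limma or edgeR, 5 had an unadjusted p under 0.05, and the median was 0.00. Nfe2l1 had means of 16570 and 17512 in Etv3+/+ and Etv3-/-. Nfe2l3, singled out after its values were seen, had 729 and 1048 normalized counts in Etv3+/+ and 2.15, 45.8 and 28.1 in Etv3-/- (limma adjusted p = 0.0665), and DESeq2 called it lower. Of 6 C/EBP and related genes 0 were called by limma, edgeR or DESeq2 and 0 had an unadjusted p under 0.05, with a median of 0.28 and means of 20104 and 28354 for Nfil3 and 1896 and 2555 for Cebpb.

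MAP kinases carry signals to AP-1 genes and proteins. Of 25 genes of these cascades 1 rose and 0 fell in limma (0.876% and 0.319% of all tested genes). There were 8 at an unadjusted p under 0.05, 1 call in edgeR and 5 in DESeq2. Over all tested genes those shares were 18.0%, 1.14% and 8.46%. The median log2 fold change of the cascade genes was -0.12. Mapk14, the p38-alpha kinase, had 3502 and 2852 normalized counts in Etv3+/+ and 7932, 7184 and 8047 in Etv3-/-, a 2.44-fold rise (limma adjusted p = 0.0344). Its call was lost without any single library (adjusted p = 0.0754 and 0.124 without Etv3+/+ replicates 1 and 2, and 0.156, 0.107 and 0.124 without Etv3-/- replicates 1, 2 and 3). Mapk8 and Mapk9, the JNK genes, were not called. Of 8 tested MAP kinase phosphatases 0 were called by limma, edgeR or DESeq2 (2 at an unadjusted p under 0.05), with a median of 0.33. Dusp5 had means of 26092 and 36070, and Dusp1 27056 and 18896, in Etv3+/+ and Etv3-/-. SRF and its cofactors (median 0.09) and genes of AP-1 protein turnover (median 0.32) each had 0 of 9 called by limma or edgeR and 2 at an unadjusted p under 0.05. DESeq2 called 1 gene of the SRF group, Elk1, which encodes a partner of SRF, and 0 of the turnover genes. Their most abundant members were Mrtfa (means 9289 and 7787), Mef2a (6169 and 4707), Ddb1 (20178 and 21432) and Itch (11835 and 16793).

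Immediate early genes outside AP-1 lay on both sides of 0. Of 22 tested, 0 were called by limma or edgeR (1.19% and 1.14% of all tested genes). An unadjusted p under 0.05 was found in 7, against 18.0% of all tested genes. The median log2 fold change was 0.00. DESeq2, which called 8.46% of all tested genes, called 6, with Ier3, Nr4a1 and Myc higher and Nr4a3, Klf6 and Zfp36l1 lower. In 4 the Etv3-/- values lay above both Etv3+/+ values and in 7 below, with 36.0% of all tested genes separated in either direction. Ier3, an early gene linked to survival and singled out after its values were seen, had 600.2 and 642 normalized counts in Etv3+/+ and 2582, 1454 and 1585 in Etv3-/-. Nr4a3, a nuclear receptor gene singled out in the same way, had 2392 and 2856 against 1055, 1116 and 1432. Egr1, induced by many of the same stimuli as Fos, had 2391 and 2207 normalized counts in Etv3+/+ and 4079, 1653 and 1568 in Etv3-/-. The most abundant were Klf6, with 22106 and 31804 against 12056, 16369 and 13206, and Zfp36l1, with means of 20020 and 10595. Both lay lower in each Etv3-/- library but did not pass (limma adjusted p = 0.116 and 0.0800). Summed, these genes took 0.190% and 0.196% of all counts in Etv3+/+ and 0.163%, 0.152% and 0.144% in Etv3-/-. Heat shock genes, which respond to handling stress, had 0 of 13 called by limma or edgeR, 1 by DESeq2 and 1 at an unadjusted p under 0.05, and a median of -0.24. Among them Hsp90ab1 had means of 61820 and 81263 and Hspa8 49494 and 59712. The sum of the heat shock genes went the other way from their median. It was 0.35% and 0.376% of all counts in Etv3+/+ and 0.428%, 0.391% and 0.471% in Etv3-/-.

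Genes widely described as AP-1 targets had 1 of 23 called higher and 0 lower in limma, against 0.876% and 0.319% of all tested genes. Their median log2 fold change was -0.01. Ccl2, a chemokine that attracts monocytes, had 197 and 328 normalized counts in Etv3+/+ and 1270, 2611 and 1773 in Etv3-/- (7.08-fold, limma adjusted p = 0.0269). Its call was kept without Etv3+/+ replicate 2 and lost without Etv3+/+ replicate 1 (adjusted p = 0.0792) and without Etv3-/- replicates 1, 2 and 3 (0.0973, 0.103 and 0.118). In 7 of the 23 the Etv3-/- values lay above both Etv3+/+ values, against 16.7% of all tested genes. In 2, Mmp13 and Il6, they lay below, against 19.3%.

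**Figure D5:**
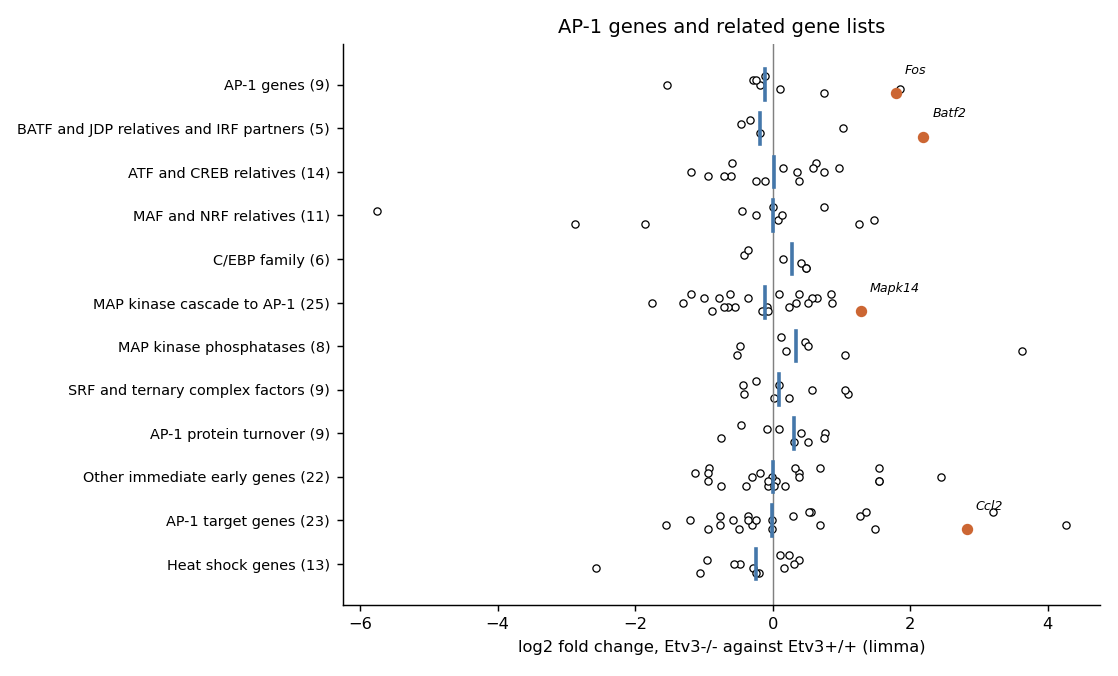
Log2 fold change of each tested gene (circles) of the AP-1 genes and of 11 related lists, with the number tested in brackets; filled circles have a limma adjusted p under 0.05 and the vertical bar is the median of the list. Fos, Batf2, Mapk14 and Ccl2 are the filled ones, and the medians lie between -0.24 and 0.33.

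Genes whose pattern over the 5 libraries was most like that of Fos were Cdc42ep4, Gpr183 and S1pr3. The measure was the root mean square difference of centred log2 values, 0.09, 0.10 and 0.13 for them, with a median of 1.04 over tested genes. Cdc42ep4, a CDC42 effector gene, had 1638 and 1633 normalized counts in Etv3+/+ and 5848, 4954 and 4851 in Etv3-/-. Gpr183, the oxysterol receptor gene, had 1213 and 1390 against 4842, 4251 and 4640. S1pr3, a sphingosine 1-phosphate receptor gene, had 638 and 711 against 2535, 2061 and 2428. Of the other members Fosb was nearest to Fos, at 0.30, followed by Junb at 0.55. The likeness includes the genotype difference itself and is a description of these 5 libraries.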

How the data were processed

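The table the authors deposited holds normalized gene counts, a signal made by dividing the reads of a gene by 1 factor per library. The submitters' processing notes name DESeq2 1.26.0, featureCounts, STAR 2.7.3a, Subread 1.6.3, Trimmomatic 0.36 and the build mm10. The annotation, strand setting and filters behind it were not given in the sources used here. Per the labels' protocols, RNA of up to 60000 sorted cells (purity above 95%) went into low-input SMART-Seq libraries, in which PCR copies cannot be told from molecules.

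Reads were recovered from the step of each library, with 100% of values within 0.1 of a whole number. A gene was tested if 2 libraries or more reached a normalized count of 10, by limma 3.58.1 (R 4.3.3, eBayes with trend) on log2(normalized count + 1), which understates changes of low genes. The test was two-sided with Benjamini-Hochberg adjustment over all 13813 genes and a threshold of 0.05. edgeR 4.0.16 and DESeq2 1.42.0 on recovered reads were alternatives (158 and 1169 calls, against 165). Exon lengths and positions came from GENCODE M21, GC content and transcript length matched 98.5% of tested genes, and matplotlib 3.10.9 drew the figures. Simulated data with known changes served to test the fit.

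Named were the members, Etv3, up to 3 called genes of each list by absolute change (or the 2 most abundant, as values), and the 3 genes most like each called member. Members and lists were chosen with earlier results of these data known. Libraries that share a number correlated at -0.03 and 0.04 in their deviations from the group means, across genes. Values of some listed genes are not reported here.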

Additional observations from a re-analysis of the deposited data

How the results depend on the processing

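Across 20 alternatives each, Fosb, Fosl1 (19), Fosl2 and Batf kept their direction and were never called, and Fos kept its direction with its call lost in 6. With a library left out, the log2 fold change ranged from -0.214 to 0.079 for Jun (above 0 without Etv3-/- replicate 2), from -0.114 to 0.316 for Jund (below 0 without Etv3+/+ replicate 2) and from -0.553 to 0.055 for Atf3 (above 0 without replicate 2 of either genotype, 0.011 for Etv3+/+). Without both libraries of strongest GC trend, Jund was at -0.099 and Atf3 at 0.035, and 0 members, 6 genes higher and 1 lower were called, with Fos at an adjusted p of 0.064. The count of members called was 1, but 0 with trend=FALSE, 2 with DESeq2 and 0 to 1 when a library was left out. Genes called higher and lower, 121 and 44, numbered 44 higher with trend=FALSE, 70 lower with a pseudocount of 5, 636 and 533 with DESeq2, and 225 and 102 with the GC and length correction. Leaving out a library gave 0 to 73 higher and 0 to 7 lower. These fits have fewer samples, and without an Etv3+/+ library the remaining one is assumed to vary like the rest. With the replicate block 151 genes were higher and 118 lower, and with block and GC correction together 106 and 42. In both the single member called was Fos. The replicate numbers are not known to pair libraries, and Etv3+/+ has no replicate 3, so the blocked difference rests on the other 4 libraries.

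The within-library difference of Fosb to Fos ranged from -0.387 to 0.498 when a library was left out, with a value of -0.039 without Etv3-/- replicate 1. It ranged from 1.70 to 2.04 for Fos to Jun, from 1.85 to 2.32 for Fos to Fosl2 and from 0.689 to 1.03 for Junb to Jun. TMM and quantile scaling moved the median of all genes by under 0.1. Depth limits Fosl1 and, less so, Fosb.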
